A study of Mus musculus with 6 samples.

Results

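The immunoglobulin constant region genes and the joining chain were examined in RNA-Seq data of BM MSCs from OVX mice after FMT. The genes were picked by symbol, with earlier results of these data known: the heavy-chain constant genes *Ighm*, *Ighd*, *Ighg3*, *Ighg1*, *Ighg2b*, *Ighg2c*, *Ighe* and *Igha*, the kappa light-chain constant gene *Igkc*, and *Jchain*. All 10 had a row among the 56980 genes of the count table, and 9 passed the low-count filter (*Ighe* did not). The contrast between the groups was among the values that led to this choice, so levels, shares and fold changes of these 10 genes are a description and carry no test.

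Both groups were female mice that underwent bilateral OVX at 8 weeks of age, received antibiotics to deplete their own gut microbiota, and were then gavaged with fecal microbiota for 8 weeks. The TranspCtrl group (3 samples) received microbiota from sedentary OVX donors, and the TranspExer group (3 samples) from OVX donors trained on a treadmill. Marrow was flushed and cultured for 7 days to obtain adherent cells, with no sorting step described, and RNA was measured in bulk. The strain and the number of mice behind a sample are not given in the sources used here, so the spread between samples may be technical.

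An antibody is built from a pair of heavy and a pair of light chains, and the constant region of the heavy chain sets its class: IgM and IgD in B cells that have not switched, and IgG, IgE or IgA after class switch recombination has joined the same variable region to a downstream constant gene. Plasma cells, many of which live in the bone marrow, transcribe these genes at very high levels, and the J chain links secreted IgM and IgA into polymers. Stromal cells are not known to make antibodies, so these transcripts mark B-lineage cells or their RNA in a marrow culture.

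The heavy-chain constant genes lie in a row on the minus strand of chromosome 12 in the mm10 build (GENCODE M21 annotation). In the direction of transcription *Ighm* (chr12:113418558-113422730) is followed by *Ighd*, *Ighg3*, *Ighg1*, *Ighg2b*, *Ighg2c* and *Ighe*, and *Igha* (chr12:113254830-113260236) is the last. *Igkc* (chr6:70726435-70726966, plus strand) is a single exon, and *Jchain* is at chr5:88519809-88527891 on the minus strand. Among the heavy-chain genes, the results turned on the 4 gamma genes, which are related in sequence and differ in the hinge, the flexible stretch between the arms and the stem of the antibody. The hinge exon (exon 2) of each is shown 5′ to 3′ as transcribed, to show how far these transcripts can be told apart, with the cysteine codons that lie whole within the exon in capitals.
Ighg3, chr12:113360529-113360576, minus strand: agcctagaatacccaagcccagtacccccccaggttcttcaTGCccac
Ighg1, chr12:113329844-113329882, minus strand: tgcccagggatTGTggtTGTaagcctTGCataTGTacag
Ighg2b, chr12:113307261-113307326, minus strand: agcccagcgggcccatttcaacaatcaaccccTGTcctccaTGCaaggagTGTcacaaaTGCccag
Ighg2c, chr12:113288263-113288325, minus strand: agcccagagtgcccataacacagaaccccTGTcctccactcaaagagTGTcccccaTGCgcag

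The exons were 48, 39, 66 and 63 bases long for *Ighg3*, *Ighg1*, *Ighg2b* and *Ighg2c*, with 1, 4, 4 and 3 such cysteine codons. Over the secreted transcripts, *Ighg2b* and *Ighg2c* shared an identical run of 78 bases, and 56 windows of 50 bases of one were found in the other (5.26% of those of *Ighg2b* and 5.27% of those of *Ighg2c*). No other pair of heavy-chain constant genes shared a window of 50 bases. The deposited counts of *Ighg2b* and *Ighg2c* had decimals in all samples but 1 (TranspExer replicate 3), while their sum was a whole number in each of the 6 samples. The split of reads between *Ighg2b* and *Ighg2c* is therefore an estimate, and their sum is given beside it.

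The second sequence difference that matters here is the end of the secreted chain. *Ighm* and *Igha* end in a tail of 59 bases that the gamma genes, with 5 bases, do not have. It encodes the tailpiece, whose cysteine, next to last in the chain (capitals), takes part in polymer formation with the J chain.
Ighm, chr12:113420870-113420928, minus strand: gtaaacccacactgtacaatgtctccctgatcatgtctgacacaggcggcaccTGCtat
Igha, chr12:113258771-113258829, minus strand: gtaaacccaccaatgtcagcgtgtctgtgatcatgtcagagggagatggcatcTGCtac

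The count totals ranged from 17647682 to 21319228 per sample, so that 3 counts, the floor used here, equalled 0.139 to 0.174 CPM (counts scaled to the library total after TMM normalization, the scale of all CPM values here). TranspCtrl replicate 1 stood apart. Its distance from the other TranspCtrl samples over log2 CPM of all tested genes was 60.2 and 62.8, against 37.0 between those samples and 42.8 to 43.9 within TranspExer, so fold changes of the constant region genes, *Jchain* and the lambda genes are also given without it. The libraries labelled MSCs held stromal transcripts, with mean CPM of *Col1a1* (type I collagen) of 8042 ± 3018 and 7222 ± 459.6 in the TranspCtrl and TranspExer groups (SD, n = 3 each). They also held those of blood cells: *Ptprc*, which encodes the pan-leukocyte antigen CD45, was at 281 ± 11.4 and 294 ± 8.44 CPM, and *Csf1r*, the receptor of macrophage colony-stimulating factor, at 882 ± 33 and 928 ± 41.9 CPM (SD, n = 3 each). The 5 myeloid markers summed to 7035 to 11278 CPM in TranspCtrl and 4936 to 5417 CPM in TranspExer, and none of these 5 was at 0. Most of each sum was *Lyz2*, at 9102, 4895 and 5238 CPM in TranspCtrl and 3235, 2897 and 2596 CPM in TranspExer. Erythroid markers were at or near 0, with sums of at most 0.345 CPM. By these markers the libraries held transcripts of blood cells beside those of stromal cells.

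Immunoglobulin transcripts were abundant in the cultures of the TranspCtrl group and less so in those of the TranspExer group. Together with the variable segments, the immunoglobulin genes and *Jchain* held 0.962% to 1.93% of all counts in TranspCtrl and 0.216% to 0.24% in TranspExer. The 8 heavy-chain constant genes summed to 8093, 4234 and 4710 CPM in TranspCtrl replicates 1, 2 and 3, and to 1001, 1022 and 847 CPM in TranspExer replicates 1, 2 and 3. The groups did not overlap, and TranspCtrl replicate 1 was the highest. The mean was 5.94-fold higher in TranspCtrl, and 4.68-fold higher without TranspCtrl replicate 1. In bulk RNA, fewer antibody-producing cells and less antibody RNA per cell cannot be told apart.

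Of the 9 tested genes, 6 were past both thresholds in the downward direction (edgeR adjusted p under 0.05 and at least 2-fold), namely *Ighm*, *Ighg3*, *Ighg1*, *Igha*, *Igkc* and *Jchain*, and 0 were past them upward in edgeR or DESeq2 (1, *Ighg2c*, had an unadjusted edgeR p under 0.05). Among all 15190 tested genes, 5.28% passed in the downward and 3.5% in the upward direction. Since the contrast chose the members, nothing is read from their count. The same 6 genes passed without TranspCtrl replicate 1. In 7 of the 9, every TranspExer sample was below every TranspCtrl sample, which held for 25.1% of all tested genes, and 27.3% lay wholly above. The plot of levels by sample shows the 10 genes side by side.

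**Figure D1:**
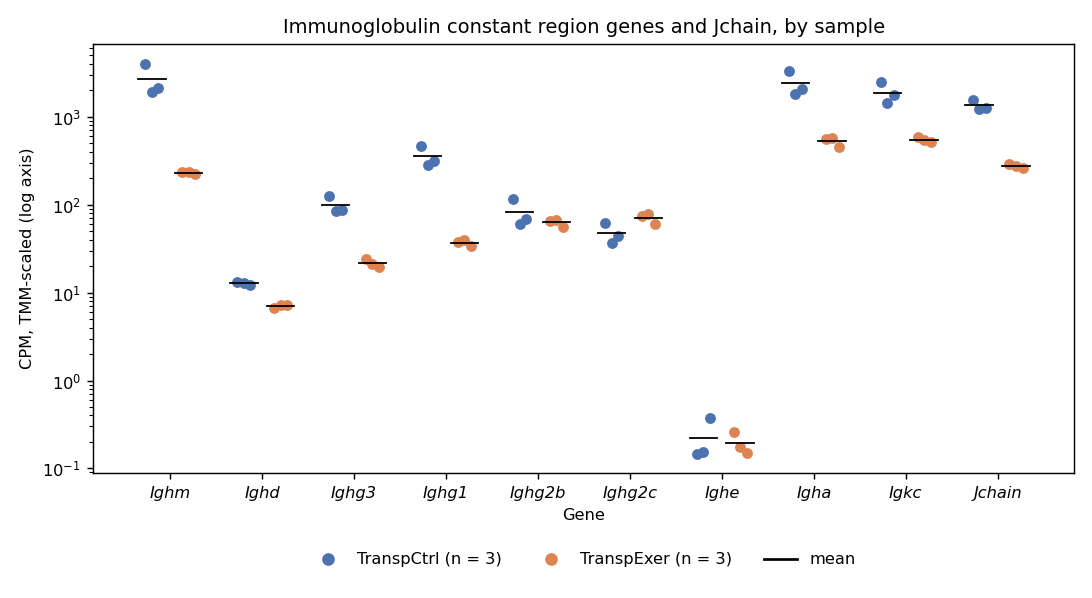
Level of each gene in each sample, in TMM-scaled CPM on a log axis. Points are samples (3 per group) and black lines are group means. Ighm shows the widest gap between the groups, Ighg2b and Ighg2c overlap between them, and Ighe lies near the floor of 3 counts.

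*Ighm* encodes the heavy chain of IgM, the first class a B cell makes. It was at 4034, 1924 and 2101 CPM in TranspCtrl and at 238, 233 and 222 CPM in TranspExer. The TranspExer samples lay close together and all below TranspCtrl. The means were 2687 ± 1170 and 231 ± 8.31 CPM (SD, n = 3 each), a log2 fold change of -3.54 (standard error 0.28), the largest in size of the 9 tested genes. Without TranspCtrl replicate 1 it was -3.12.

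*Ighd*, which encodes the IgD heavy chain, is made from the same primary transcript as *Ighm* by alternative splicing in mature B cells that have not yet switched, and plasma cells largely lack it. It was at 13.3, 12.8 and 12.3 CPM in TranspCtrl and at 6.59, 7.26 and 7.25 CPM in TranspExer. The groups did not overlap, and TranspCtrl replicate 1 did not stand out for this gene. The log2 fold change was -0.86 (standard error 0.11), under the 2-fold threshold, and -0.83 without TranspCtrl replicate 1. The count of *Ighm* per *Ighd* count was 304, 151 and 171 in TranspCtrl and 36.1, 32.1 and 30.6 in TranspExer. The TranspCtrl mean was 6.33-fold higher, or 4.88-fold higher without TranspCtrl replicate 1.

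*Igha* encodes the heavy chain of IgA, the class of mucosal surfaces. It was at 3276, 1831 and 2082 CPM in TranspCtrl and at 554, 576 and 448 CPM in TranspExer. All TranspExer samples were lower, and the log2 fold change was -2.19 (standard error 0.22), or -1.90 without TranspCtrl replicate 1. *Jchain* was at 1553, 1222 and 1259 CPM in TranspCtrl and at 291, 275 and 261 CPM in TranspExer, again with no overlap. Its log2 fold change was -2.29 (standard error 0.12), and -2.17 without TranspCtrl replicate 1.

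*Jchain* was then set against the classes it links. The counts of *Ighm* plus *Igha*, the genes with the tailpiece shown above, per *Jchain* count were 4.71, 3.07 and 3.32 in TranspCtrl and 2.72, 2.94 and 2.56 in TranspExer. TranspCtrl replicate 1 was the highest, and the other TranspCtrl samples lay just above TranspExer. Taken per base of transcript, the ratio overlapped between the groups (3.37 to 5.10 and 2.96 to 3.44). *Jchain* per heavy-chain count, at 0.192, 0.289 and 0.267 in TranspCtrl and 0.291, 0.269 and 0.308 in TranspExer, overlapped as well.

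The gamma genes encode the IgG subclasses and did not move together. *Ighg1* was at 464, 285 and 315 CPM in TranspCtrl and at 37.5, 39.3 and 33.6 CPM in TranspExer. The groups were far apart, with a log2 fold change of -3.27 (standard error 0.19), and -3.03 without TranspCtrl replicate 1. *Ighg3* was at 126, 83.7 and 86.5 CPM in TranspCtrl and at 24.0, 21.2 and 19.7 CPM in TranspExer. It was also lower in every TranspExer sample, by a log2 fold change of -2.19 (standard error 0.17), or -1.98 without TranspCtrl replicate 1.

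*Ighg2b* was at 117, 61.0 and 69.3 CPM in TranspCtrl and at 65.9, 66.9 and 55.8 CPM in TranspExer. The groups overlapped, and only TranspCtrl replicate 1 lay clearly above the rest. The log2 fold change was -0.39 (standard error 0.23) and -0.06 without TranspCtrl replicate 1. *Ighg2c* is carried by some mouse strains in place of *Ighg2a*. As the strain is not given and *Ighg2a* was not analysed here, reads of that allele, if present, cannot be told apart from those counted for *Ighg2c* and *Ighg2b*. *Ighg2c* was at 62.7, 36.3 and 43.6 CPM in TranspCtrl and at 74.6, 77.9 and 60.9 CPM in TranspExer. TranspCtrl replicate 1 reached into the range of TranspExer, and the other TranspCtrl samples lay below it. The log2 fold change was 0.58 (standard error 0.19) and 0.83 without TranspCtrl replicate 1, the one positive value among the 9 tested genes.

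The sum of *Ighg2b* and *Ighg2c*, which does not depend on how shared reads were split, was 180, 97.3 and 113 CPM in TranspCtrl and 141, 145 and 117 CPM in TranspExer. The groups overlapped, with means of 130 ± 43.7 and 134 ± 15.1 CPM (SD, n = 3 each). Without TranspCtrl replicate 1 the TranspExer mean was 1.27-fold the TranspCtrl mean. The neighbours in the gene row thus differed: *Ighg3* and *Ighg1* lay upstream with the larger negative fold changes, *Ighg2b* and *Ighg2c* next with small ones of opposite sign, and *Igha* last with a log2 fold change of -2.19.

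*Ighe*, which encodes the heavy chain of IgE, had 3, 3 and 8 counts in TranspCtrl and 5, 3 and 3 counts in TranspExer. These counts lay at or just above the floor of 3 in all samples, and no fold is given.

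The mix of isotypes was then taken within each sample as a share of the summed heavy-chain constant counts, which were 165745, 82473 and 101289 in TranspCtrl and 19126, 17578 and 17047 in TranspExer. At these depths the Wilson interval (95%) of a share was at most 0.749 percentage points to either side, which covers counting error only. *Ighm* made up 49.8%, 45.5% and 44.6% of heavy-chain counts in TranspCtrl and 23.8%, 22.8% and 26.2% in TranspExer. *Igha* made up 40.5%, 43.2% and 44.2% in TranspCtrl and 55.3%, 56.3% and 52.9% in TranspExer. *Ighm* was the leading isotype by counts in every TranspCtrl sample, and *Igha* in every TranspExer sample. In TranspCtrl replicate 3 the Wilson intervals of *Ighm* (44.3% to 44.9%) and *Igha* (43.9% to 44.5%) overlapped. With counts taken per secreted transcript length, *Igha* led in TranspCtrl too, at 46.5%, 49.0% and 49.9% against 42.2%, 37.9% and 37.1% for *Ighm*. The count of *Ighm* per *Igha* count was 1.10 ± 0.118 in TranspCtrl and 0.444 ± 0.0467 in TranspExer (SD, n = 3 each).

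The switched isotypes together (IgG, IgE and IgA) made up 49.99%, 54.2% and 55.1% of heavy-chain counts in TranspCtrl and 75.6%, 76.4% and 72.9% in TranspExer. No sample of one group lay in the range of the other, and the means differed by 21.9 percentage points. *Ighd*, whose level differed less between the groups than the sum did, had a share of 0.242% ± 0.0707 in TranspCtrl and 0.742% ± 0.102 in TranspExer. The share of *Ighg1* was 6.38% ± 0.560 in TranspCtrl and 3.85% ± 0.111 in TranspExer, and that of *Ighg3* 1.79% ± 0.217 and 2.26% ± 0.167 (SD, n = 3 each).

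Among the isotypes well above the count floor, *Ighg2b* and *Ighg2c* had the largest ratios of shares between the groups. *Ighg2b* was at 1.44%, 1.44% and 1.47% in TranspCtrl and at 6.58%, 6.54% and 6.59% in TranspExer. *Ighg2c* was at 0.775%, 0.858% and 0.925% in TranspCtrl and at 7.46%, 7.62% and 7.19% in TranspExer. The replicates of a group were nearly equal, and the TranspExer means were 4.53-fold and 8.71-fold the TranspCtrl means. The differences in share were 5.12 and 6.57 percentage points for *Ighg2b* and *Ighg2c*, and 4.35 and 11.2 with counts taken per exon length, so the size of the *Ighg2c* difference depends on the length used. Both differences were of shares in a sum that was itself lower in TranspExer. The levels of these genes overlapped between the groups, as given above.

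Within the gamma genes alone, whose summed counts were 9075 to 15751 in TranspCtrl and 3421 to 3860 in TranspExer, the leading subclass differed between the groups. *Ighg1* held 60.3%, 61.1% and 61.2% of gamma counts in TranspCtrl and 18.5%, 19.2% and 19.8% in TranspExer. *Ighg2c* held 8.15%, 7.80% and 8.48% in TranspCtrl and 37.0%, 37.9% and 35.8% in TranspExer. By the genes as counted, *Ighg1* was the leading subclass in every TranspCtrl sample and *Ighg2c* in every TranspExer sample, with 7.49 ± 0.320 and 0.520 ± 0.0279 counts of *Ighg1* per *Ighg2c* count (SD, n = 3 each). *Ighg2b* and *Ighg2c* together, free of the split between them, held 22.1% ± 1.23 of gamma counts in TranspCtrl and 69.6% ± 0.917 in TranspExer. *Ighg2b* alone held 13.9% ± 1.12 and 32.7% ± 0.151, and *Ighg3* 17.0% ± 0.845 and 11.3% ± 0.813, in TranspCtrl and TranspExer.

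**Figure D2:**
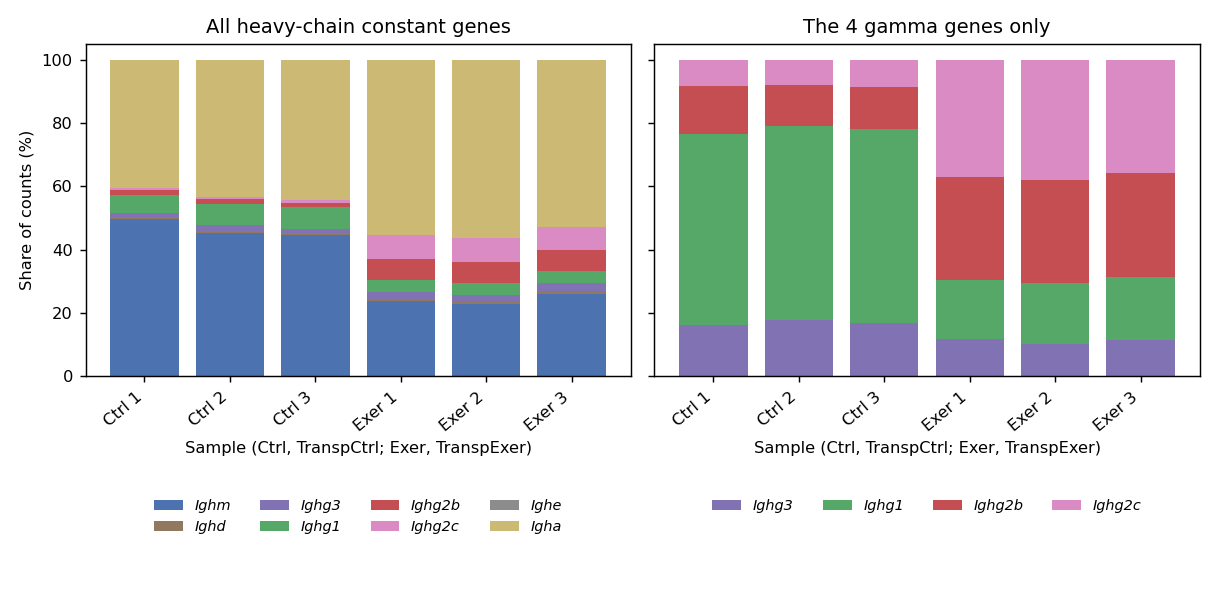
Share of each heavy-chain constant gene in the summed counts of a sample, in percent, over all 8 heavy-chain genes (left) and over the 4 gamma genes (right). Each bar is a sample, with the 3 TranspCtrl samples first. Ighm takes 44.6% to 49.8% of the bar in TranspCtrl and 22.8% to 26.2% in TranspExer. Among the gamma genes Ighg1 takes most of each TranspCtrl bar, and Ighg2b and Ighg2c together most of each TranspExer bar.

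The direction of a share depends on what it is a share of. Over the switched genes alone, *Igha* held 80.3% ± 0.645 in TranspCtrl and 73.1% ± 0.623 in TranspExer, so that it was lower in TranspExer, whereas over all heavy-chain counts it was higher. *Ighg3* over the switched genes was at 3.36% ± 0.272 and 3.02% ± 0.266, with overlap. *Ighg1* was lower, and *Ighg2b* and *Ighg2c* were higher, in TranspExer over both denominators.

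The light chain pairs with a heavy chain of any class, and mouse B cells use kappa far more often than lambda. *Igkc* was at 2457, 1436 and 1766 CPM in TranspCtrl and at 587, 547 and 515 CPM in TranspExer. All TranspExer samples were lower, with a log2 fold change of -1.78 (standard error 0.19), and -1.54 without TranspCtrl replicate 1. Per heavy-chain constant count, *Igkc* was at 0.304, 0.339 and 0.375 in TranspCtrl and at 0.587, 0.535 and 0.609 in TranspExer. Relative to the heavy chains it was thus higher in every TranspExer sample, with means of 0.339 ± 0.0357 and 0.577 ± 0.0377 (SD, n = 3 each). The difference was 0.237 with counts as deposited, and 1.04 per exon length or 0.474 per secreted transcript length, which put the ratio on another scale.

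The lambda constant genes, which are not members, were tested in the fit over all genes. *Iglc1* fell from 134 ± 45.0 to 12.05 ± 1.51 CPM (SD, n = 3 each), with a log2 fold change of -3.47 and an edgeR adjusted p of 8.1e-05. *Iglc2* and *Iglc3* fell by 3.26 and 4.34 on the log2 scale (edgeR adjusted p = 0.000468 and 0.000377). Without TranspCtrl replicate 1 the log2 fold changes of *Iglc1*, *Iglc2* and *Iglc3* were -3.17, -2.77 and -3.84. *Iglc4* was not tested, as no sample held more than 1 count of it. *Iglc2* and *Iglc3* share an identical run of 79 bases, and their summed counts of 4025, 1546 and 2088 in TranspCtrl and 224, 192 and 178 in TranspExer do not depend on how reads were split between them.

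The ratio of the light chains differed accordingly. *Igkc* per lambda constant count was at 6.45, 8.15 and 8.09 in TranspCtrl and at 23.5, 25.4 and 24.1 in TranspExer. The kappa share of light-chain constant counts was 86.6%, 89.1% and 89.0% in TranspCtrl and 95.9%, 96.2% and 96.0% in TranspExer, with no overlap. Kappa and lambda together per heavy-chain count were at 0.384 ± 0.0355 in TranspCtrl and 0.600 ± 0.0400 in TranspExer (SD, n = 3 each).

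**Figure D3:**
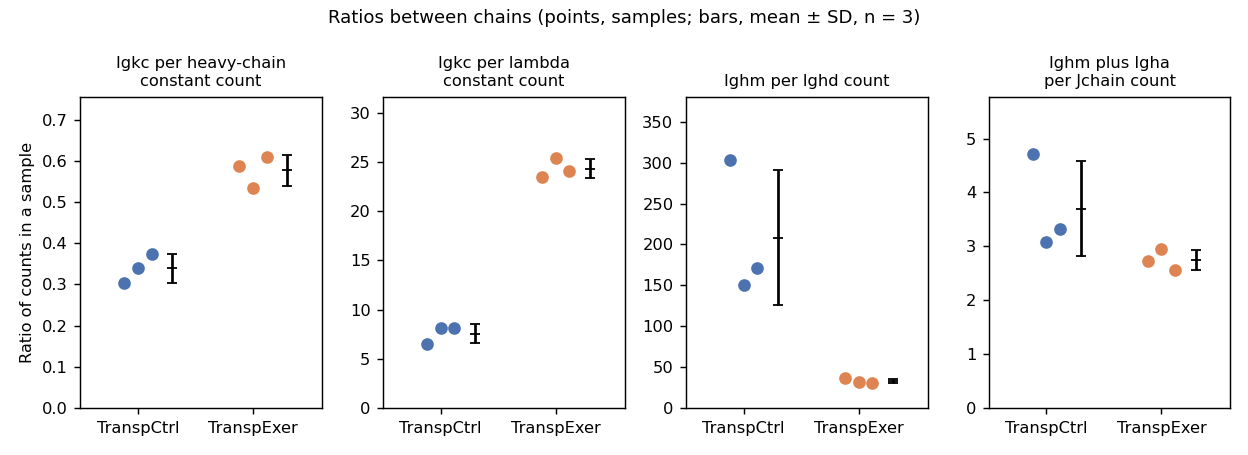
Ratios of counts within each sample, unitless, for TranspCtrl and TranspExer. Points are samples and bars are mean ± SD (n = 3). Igkc per heavy-chain count and per lambda count is higher in every TranspExer sample, Ighm per Ighd is lower in every one, and Ighm plus Igha per Jchain count differs little once TranspCtrl replicate 1, at 4.71, is set aside.

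The variable segments were read against the constant genes as well. The 183 heavy-chain variable rows summed to 0.263, 0.209 and 0.202 counts per heavy-chain constant count in TranspCtrl and to 0.144, 0.154 and 0.166 in TranspExer. The 160 kappa variable rows gave 1.10, 0.944 and 0.901 counts per *Igkc* count in TranspCtrl and 0.696, 0.713 and 0.823 in TranspExer. Both ratios were lower in every TranspExer sample, so that the variable segments differed more between the groups than the constant genes did.

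Levels of different genes were compared per kilobase of secreted transcript. In TranspCtrl, *Igkc* was highest at 3546 ± 979 CPM per kb, followed by *Igha* at 2178 ± 702, *Ighm* at 1800 ± 784, *Jchain* at 965 ± 130 and *Ighg1* at 329 ± 89.2 (SD, n = 3 each). *Ighg3*, *Ighg2b*, *Ighg2c* and *Ighd* followed at 91.1 ± 21.6, 74.0 ± 27.1, 42.8 ± 12.3 and 15.9 ± 0.627 CPM per kb, and *Ighe* was the lowest. The ranges of *Igkc* and *Igha*, of *Igha* and *Ighm*, of *Ighg3* and *Ighg2b*, and of *Ighg2b* and *Ighg2c* overlapped, and the other neighbours in this order were apart.

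In TranspExer the order was *Igkc* at 1033 ± 67.4, *Igha* at 478 ± 62.2, *Jchain* at 198 ± 10.7, *Ighm* at 155 ± 5.56, *Ighg2c* at 64.0 ± 8.13 and *Ighg2b* at 56.4 ± 5.48 CPM per kb (SD, n = 3 each). *Ighg1*, *Ighg3* and *Ighd* followed at 34.2 ± 2.73, 19.98 ± 2.01 and 8.77 ± 0.480 CPM per kb. Only *Ighg2c* and *Ighg2b* overlapped among neighbours. Per length *Igha* was above *Ighm* in both group means, while by counts *Ighm* led in TranspCtrl.

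The other genes of the B lineage did not all go the way of the constant genes. Of 16 plasma cell genes, 7 fell past both thresholds and 0 rose in edgeR or DESeq2 (2 were higher at an unadjusted edgeR p under 0.05), with a median log2 fold change of -0.90, against -0.02 over all tested genes. *Mzb1*, a chaperone of antibody assembly, fell from 131 ± 19.8 to 11.0 ± 0.809 CPM (SD, n = 3 each), a log2 fold change of -3.57 (edgeR adjusted p = 9.98e-06). *Tnfrsf17*, the receptor BCMA that keeps plasma cells alive, was counted 76, 45 and 60 times in TranspCtrl but only 13, 1 and 3 times in TranspExer. It fell (edgeR adjusted p = 0.00394), with a fitted log2 fold change of -3.26. Because TranspExer replicates 2 and 3 were at or below the floor and replicate 1 was above it, this size is uncertain. It was -4.71 without TranspExer replicate 1 and -2.83 without TranspExer replicate 2. *Pou2af1*, a coactivator of immunoglobulin transcription, *Derl3*, a factor in the disposal of misfolded proteins, and *Eaf2*, an elongation factor partner, had log2 fold changes of -2.81, -2.96 and -4.77 and were past both thresholds. *Irf4*, a transcription factor of plasma cell differentiation, fell by 2.30 on the log2 scale (edgeR adjusted p = 9.98e-06). The remaining call was *Fkbp11*, and the call of *Fkbp11* was lost without TranspCtrl replicate 1 or without TranspExer replicate 2 or 3.

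Several defining plasma cell genes were not past the thresholds. *Sdc1*, which encodes CD138, had means of 195 ± 39.7 and 215 ± 4.63 CPM (SD, n = 3 each) in TranspCtrl and TranspExer, with a log2 fold change of 0.14 (edgeR adjusted p = 0.485), which turned to -0.02 without TranspCtrl replicate 1. *Xbp1* and *Prdm1*, transcription factors of the secretory program, had log2 fold changes of -0.88 and -0.40, under 2-fold, with edgeR adjusted p-values of 0.000309 and 0.0345. Other cells express these genes too, and the part of other cells in the values of any gene of this list was not tested.

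Of 20 B cell genes, 7 fell and 1 rose past both thresholds, with a median log2 fold change of -0.41. At an unadjusted edgeR p under 0.05, 11 were lower and 4 higher. Summed over the list, CPM was 844 to 882 in TranspCtrl and 862 to 904 in TranspExer. *Cd79a* and *Cd79b*, the signal chains of the B cell receptor, fell by 1.42 and 1.38 on the log2 scale, and *Ms4a1*, which encodes the surface antigen CD20, fell by 1.25 (edgeR adjusted p between 6.19e-05 and 0.000841 for these 3). *Fcrla*, *Tnfrsf13c* (the BAFF receptor) and *Fcer2a* (CD23) also fell. *Cd72*, an inhibitory coreceptor, rose by 1.00 on the log2 scale, right at the threshold, and lost the call under 5 other settings of scaling or filtering and when any of several single samples was left out. *Pax5*, the transcription factor that keeps B cell identity, had a log2 fold change of -0.35 (edgeR adjusted p = 0.0718). *Cd180* was higher in every TranspExer sample, with a log2 fold change of 0.93, under 2-fold (edgeR adjusted p = 0.000112).

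**Figure D4:**
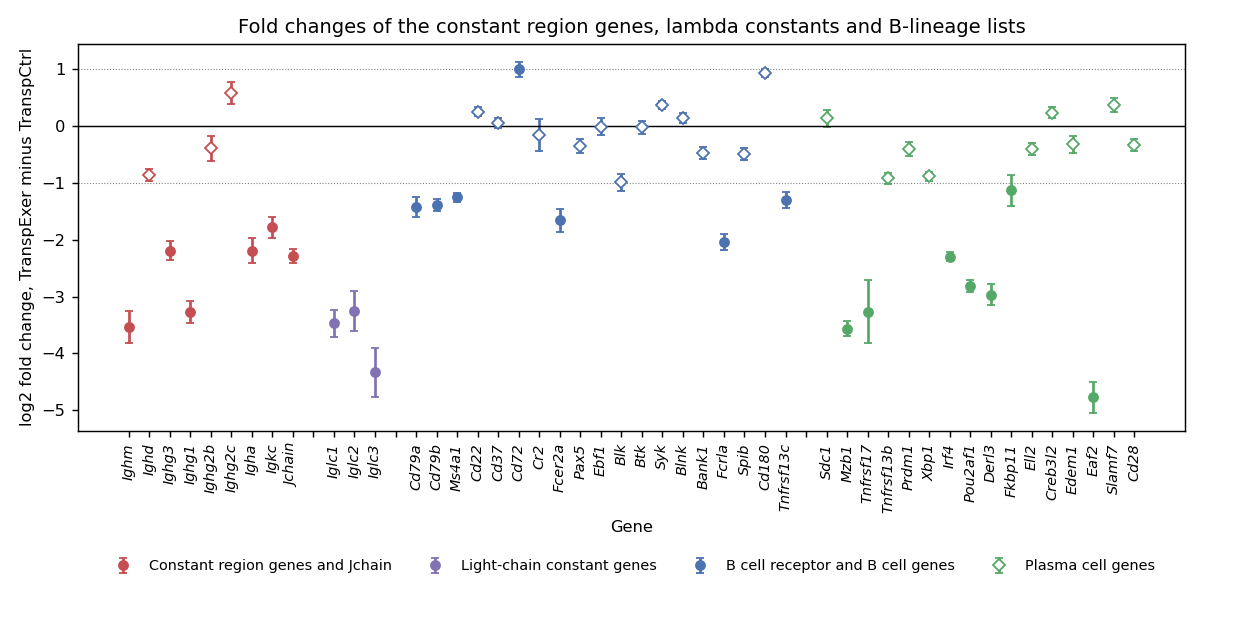
Log2 fold change, TranspExer minus TranspCtrl, with its standard error, for the constant region genes and Jchain, the lambda constant genes, and genes of the B cell and plasma cell lists. Filled circles are genes past both thresholds, open diamonds are not, and dotted lines mark a 2-fold difference. Ighm, Ighg1 and the lambda genes lie at or below -3.26, as do Mzb1 and Eaf2, while Sdc1 and the B cell genes drawn as open diamonds lie between -1 and 1.

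The genes of class switching were read next, since the isotype mix differed. Of 15 such genes, 0 passed both thresholds in edgeR or DESeq2, and at an unadjusted edgeR p under 0.05 there were 4 lower and 2 higher. *Ung*, which removes uracil from DNA, had a log2 fold change of 0.56, under 2-fold (edgeR adjusted p = 0.0383). *Xrcc5* had a larger difference in the other direction, with a log2 fold change of -0.77, also under 2-fold (edgeR adjusted p = 0.00188). By sign, 10 of the 15 genes were lower and 5 higher.

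Among 12 genes of early B cells, 6 were tested, of which 1 fell (*Vpreb3*) and 2 rose. *Il7r*, the interleukin-7 receptor that is also found on other cells, rose from 25.1 ± 0.212 to 107 ± 1.05 CPM (SD, n = 3 each), a log2 fold change of 2.09 (edgeR adjusted p = 9.98e-06), and *Cd93* rose by 1.25. The defining genes *Rag1*, *Igll1*, *Vpreb1* and *Dntt* were all below the filter, with at most 0.462 CPM in any sample. The rises of *Il7r* and *Cd93* are therefore not read as a sign of early B cells.

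Of 12 receptors and carriers of antibodies, 10 were tested and 1 rose past both thresholds. At an unadjusted edgeR p under 0.05, 5 were higher, that gene included, and 1 was lower. The median log2 fold change was 0.33. *Fcgr4*, a receptor for IgG2 subclasses on myeloid cells, rose from 87.8 ± 2.17 to 211 ± 9.01 CPM (SD, n = 3 each), a log2 fold change of 1.26 (edgeR adjusted p = 4.66e-05). *Fcgrt*, the neonatal Fc receptor, *Fcgr2b*, the inhibitory IgG receptor, and *Fcmr*, the IgM receptor, had log2 fold changes of -0.29, -0.23 and 0.27 and did not pass (edgeR adjusted p = 0.12, 0.0612 and 0.412). *Pigr*, the carrier of polymeric IgA and IgM across epithelia, was below the filter.

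Markers of other cells were set beside these differences. Among 5 myeloid markers, *Lyz2* fell by 1.14 on the log2 scale (edgeR adjusted p = 0.00873) and lost the call without TranspCtrl replicate 1 (log2 fold change -0.80), and the other markers had log2 fold changes between 0.06 and 0.16. Of 4 neutrophil markers 0 passed both thresholds in edgeR or DESeq2 (1 was lower at an unadjusted edgeR p under 0.05). *S100a8* had a log2 fold change of -0.17 (edgeR adjusted p = 0.681), which turned to 0.26 without TranspCtrl replicate 1, and the markers had sums of 1446 to 2461 CPM in TranspCtrl and 1691 to 1971 CPM in TranspExer. The 3 T cell markers summed to 4.30 to 7.34 CPM in TranspCtrl and 4.29 to 4.67 CPM in TranspExer, and *Cd3d* fell by 1.83 on the log2 scale (edgeR adjusted p = 0.0208) from 22 to 31 counts to 2 to 12 counts. Its call was lost without TranspExer replicate 1 (log2 fold change -1.40) or 2 (-1.83), and its log2 fold change was -2.50 without TranspExer replicate 3, while *Cd3e* had a log2 fold change of -0.09 (edgeR adjusted p = 0.900). With 19 counts in TranspCtrl replicate 1 against 92 and 83 in the other TranspCtrl samples, the *Cd3e* value was -0.52 without that sample (edgeR adjusted p = 0.0391) and 0.31 without TranspCtrl replicate 2. Of 7 stromal markers, *Eng* rose by 1.69 on the log2 scale. *Pdgfra* fell by 1.00, at the 2-fold threshold, and lost the call without TranspCtrl replicate 2 or TranspExer replicate 1. The log2 fold change was 0.39 for *Pdgfrb*, -0.46 for *Cxcl12* and -0.16 for *Col1a1* (between -0.44 and 0.03 with 1 sample left out), all under 2-fold. None of the 7 was at 0, and they summed to 6230 to 11823 CPM in TranspCtrl and 8308 to 9253 CPM in TranspExer. The part of these cells in the immunoglobulin differences was not tested.

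Over the 6 samples, genes outside the lists, and not annotated or named as immunoglobulin genes, were compared with the summed heavy-chain log2 CPM. Those most like it in log2 CPM were *Bsg*, *C1ra*, *Ly6a*, *Mir155hg* and a gene without a symbol (ENSMUSG00000120754), whose position was not examined here. Their Pearson correlation was 0.998 each, over 6 points that fall into the 2 groups and share their library scaling, so this is a description. *Ly6a*, which encodes the surface antigen Sca-1, was at 434, 315 and 347 CPM in TranspCtrl and at 173, 181 and 170 CPM in TranspExer. *Mir155hg*, the host transcript of a microRNA active in B cells and other leukocytes, was at 1.37, 1.03 and 1.02 CPM in TranspCtrl and at 0.419, 0.407 and 0.348 CPM in TranspExer. In all of them TranspCtrl replicate 1 was the highest sample, as it was for the heavy-chain sum.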

How the data were processed

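RNA-Seq of cultured BM MSCs was analysed in 3 TranspCtrl and 3 TranspExer samples, grouped by the sample labels. The authors deposited expected counts per gene, which are estimated from reads, for 56980 genes, not normalized, of which 10.1% to 12.2% in a sample were not whole numbers. The submitters' processing notes name the mm10 build. The aligner and counter are not given in the sources used here, and the labels and the study's methods name different library kits. Counts were rounded for tests. Differential expression was tested with edgeR 4.0.16 in R 4.3.3 (filterByExpr, TMM, quasi-likelihood, condition only) with Benjamini-Hochberg adjustment over 15190 genes. Calls had an adjusted p under 0.05 and at least 2-fold change, the study's thresholds. CPM values are TMM-scaled and given as mean ± SD. Shares and ratios used the unrounded counts. Lengths and sequences came from GENCODE M21 transcripts, in which 52125 identifiers were found and 4855 were not. Protein sequences were not used here. Some genes of the lists are counted but not reported here by name.

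The members and the 11 gene lists were chosen with earlier results of these data known. The genes named are the 10 members, the lambda constant genes, the defining genes of each list with up to 3 further called genes of smallest adjusted p, and the 5 genes most like the heavy-chain sum. *Cd72*, *Cd180*, *Xrcc5*, *Fkbp11*, *Csf1r* and *Cd5l* were named after their values were seen. The alternatives were DESeq2 1.42.0, other scalings and filters, the fold change tested in the model, a replicate block, each sample left out in turn, counts per exon length, other denominators and, added after seeing the data, counts per secreted transcript length. On simulated data with 200 of 15190 genes changed by 1.5 on the log2 scale, edgeR recovered 91% and 0.546% of its calls were unchanged genes.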

Additional observations from a re-analysis of the deposited data

How the results depend on the processing

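In all, 1129 values were recomputed for 90 results, and 39 of them lost or gained a call, changed direction or moved beyond the replicate spread. No scaling changed the direction of any tested member, and 6 members were past both thresholds under every alternative. With the 2-fold limit tested inside the model, 274 genes were lower and 138 higher over all genes, against 802 and 531. The single B cell gene called higher (*Cd72*) became 0 with upper-quartile scaling, with library size only, with library sizes without immunoglobulin genes, without the low-count filter and with a filter of 1 CPM.

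Shares depended on length and denominator. The differences in share, TranspExer minus TranspCtrl in percentage points, were 4.35 for *Ighg2b*, 11.2 for *Ighg2c* and 0.0227 for *Ighe* per exon length, with 1.04 for *Igkc* per heavy-chain count. Per secreted transcript length they were 0.708 for *Ighd*, -3.21 for *Ighg1*, 5.29 for *Ighg2b* and 6.87 for *Ighg2c*, with 0.474 for *Igkc* per heavy-chain count. Over switched genes alone they were -0.337 for *Ighg3* and -7.16 for *Igha*, both reversed in direction, and -6.85, 6.03 and 8.29 for *Ighg1*, *Ighg2b* and *Ighg2c*.

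Leaving out 1 sample at a time gave 6 to 8 plasma cell genes called lower, 0 to 1 genes called lower among T cell markers, 0 to 1 among myeloid and 0 to 1 among stromal markers, 0 to 1 called higher among B cell genes, and 1 to 2 called higher among antibody receptors (with *Cd5l* added without TranspCtrl replicate 1). The T cell call (*Cd3d*) was lost without TranspExer replicate 1 or 2, the stromal call (*Pdgfra*) without TranspCtrl replicate 2 or TranspExer replicate 1, and the myeloid call (*Lyz2*) without TranspCtrl replicate 1 or TranspExer replicate 3. The B cell call (*Cd72*) was lost without TranspCtrl replicate 2 or 3 or TranspExer replicate 1 or 2. The cause of these changes was not tested. Samples with the same number did not deviate together (correlations of -0.0017 to 0.042). With 3 samples per group, this check cannot show that the samples were unpaired. With a replicate block, 767 genes were lower and 519 higher, and 6 members were lower. The split of reads between genes that share sequence limits *Ighg2b*, *Ighg2c*, *Iglc2* and *Iglc3*, and counts near the floor of 3 limit *Ighe*, *Tnfrsf17* and *Cd3d*.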
